A study of Mus musculus with 4 samples.

Results

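Gata4 binding was described around 10 core cardiac transcription regulators, *Nkx2-5*, *Isl1*, *Irx4*, *Hand1*, *Hand2*, *Mef2c*, *Srf*, *Myocd*, *Smarcd3* and *Lbh*, out of 22238 protein-coding genes. Their peaks were taken as those that lay inside the gene or within 50 kb of it on mm9, which gave 39 of the 20410 peaks of the WT list and 46 of the 22733 peaks of the DKO list. Of these, 21 peaks of each list lay inside the gene or within 5 kb.

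Gata4 is a zinc-finger transcription factor that binds DNA at short motifs built on GATA. In the forming heart it acts together with the homeodomain factor Nkx2-5, the LIM-homeodomain factor Isl1, the basic helix-loop-helix factors Hand1 and Hand2, and the MADS-box factors Mef2c and Srf. Myocardin, the product of *Myocd*, is a coactivator of Srf, Smarcd3 (Baf60c) is a subunit of the BAF chromatin-remodelling complex, and Irx4 is a homeodomain factor of the ventricles. *Lbh* (limb-bud and heart) encodes a small nuclear cofactor expressed in limb bud and heart. Dnmt3a and Dnmt3b place new methyl groups on CpGs, so the pair of lists compares Gata4 binding in mesoderm cells with and without these enzymes.

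All cells derived from mouse J1 ES cells and expressed Gata4GR, in which Gata4 is fused to the hormone-binding part of a glucocorticoid receptor, expressed from the CAG promoter and activated by dexamethasone (Dex). Both Flk1(+) libraries were made at day 4.5 of differentiation on OP9 stromal cells, after 100 nM Dex for 3 hr and magnetic sorting for the mesoderm surface receptor Flk1. DKO cells were Dnmt3a-/- Dnmt3b-/-, and the background libraries, WT ES and DKO ES, were made from undifferentiated cells of the same kinds without Dex. Each of the 4 conditions had 1 library, precipitated with a mixture of 3 anti-Gata4 antibodies, and each Flk1(+) library came from 1 clone (J1G4.2 for WT and 16G4.3 for DKO by the labels, where the study's methods give the WT clone a longer name). Because no condition had a replicate, no difference between the lists could be tested, and clone, library and genotype cannot be told apart. The peak lists hold no expression values, so the loss of Dnmt3a and Dnmt3b and the Flk1 identity of the cells were not checked here. A peak height from a cell population also cannot tell fewer bound cells from less binding per cell.

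Every listed peak has a position, a height in the Flk1(+) cells, a background height in ES cells of the same genotype, an enrichment (the ratio of the heights, with a background below 1 taken as 1) and a rank by q value, in which rank 1 is the most significant. Only peaks with a height of at least 5.00 and an enrichment of at least 3.00 are listed, so a site missing from a list may still have signal below these limits. Over all peaks the median height was 7.74 (WT) and 6.91 (DKO), and whether the heights are scaled for library depth is not known here. Numbers of reads are not given in the lists, and the study's methods give more mapped reads for the DKO than for the WT Flk1(+) library. A window of 250 bp on either side of each position was used, and peaks of the lists were said to overlap where their windows shared at least 1 bp. Distances below are counted from the annotated transcription start site, and CpGs and motifs were counted in the window of each peak.

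The 9 sequences that follow carry the pattern described below, because each lies at a position with a peak in both lists and holds a Gata motif. They are the central 161 bases of the tallest overlapping WT peak that lay over 1 kb from any start site, for each regulator that had one, read from the plus strand of mm9. Capitals mark AGATAA or TGATAA on either strand, which read TTATCT or TTATCA where the motif lies on the minus strand, and in the *Srf* sequence also a CArG box, the motif bound by Srf itself.
Nkx2-5, upstream (chr17:26987828-26987988): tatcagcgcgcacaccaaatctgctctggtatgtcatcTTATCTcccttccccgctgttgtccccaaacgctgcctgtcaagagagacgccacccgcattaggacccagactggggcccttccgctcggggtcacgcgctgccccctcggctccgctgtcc
Isl1, upstream (chr13:117132589-117132749): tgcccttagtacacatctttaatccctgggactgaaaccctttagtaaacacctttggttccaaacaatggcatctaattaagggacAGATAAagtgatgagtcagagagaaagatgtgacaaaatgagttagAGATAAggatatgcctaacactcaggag
Hand1, upstream (chr11:57678231-57678391): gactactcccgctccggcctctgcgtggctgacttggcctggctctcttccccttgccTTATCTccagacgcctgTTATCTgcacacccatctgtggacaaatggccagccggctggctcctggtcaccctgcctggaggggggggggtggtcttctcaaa
Hand2, upstream (chr8:59797391-59797551): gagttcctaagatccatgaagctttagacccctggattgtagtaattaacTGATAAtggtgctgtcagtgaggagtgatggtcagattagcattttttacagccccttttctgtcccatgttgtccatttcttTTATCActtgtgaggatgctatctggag
Mef2c, intron 2 (chr13:83662288-83662448): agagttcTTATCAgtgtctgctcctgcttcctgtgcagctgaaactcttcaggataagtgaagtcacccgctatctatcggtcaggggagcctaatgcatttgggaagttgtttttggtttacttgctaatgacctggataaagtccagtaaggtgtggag
Srf, intron 2 (chr17:46690235-46690395): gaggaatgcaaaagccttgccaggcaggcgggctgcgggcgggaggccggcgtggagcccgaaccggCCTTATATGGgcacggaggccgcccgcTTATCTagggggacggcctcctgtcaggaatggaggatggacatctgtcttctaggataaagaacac
Myocd, upstream (chr11:65109327-65109487): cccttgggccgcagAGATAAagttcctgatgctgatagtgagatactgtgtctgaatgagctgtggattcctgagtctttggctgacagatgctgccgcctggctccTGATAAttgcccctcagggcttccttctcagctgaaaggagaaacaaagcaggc
Smarcd3, upstream (chr5:24115248-24115408): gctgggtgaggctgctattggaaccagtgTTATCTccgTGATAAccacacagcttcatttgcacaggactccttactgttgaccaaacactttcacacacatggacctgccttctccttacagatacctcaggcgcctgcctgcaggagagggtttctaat
Lbh, intron 2 (chr17:73282868-73283028): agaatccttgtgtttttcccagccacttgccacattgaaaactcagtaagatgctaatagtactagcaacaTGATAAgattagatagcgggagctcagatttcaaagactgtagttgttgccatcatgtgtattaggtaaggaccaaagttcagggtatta

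Gata4 peaks were found near almost all of the regulators in both lists. Within 5 kb, peaks of the WT list were found at 9 of the 10 genes and peaks of the DKO list at the same 9, with *Irx4* the exception. Over all protein-coding genes, 39.4% had a WT peak within 5 kb, 49.1% a DKO peak and 31.9% both. Within 50 kb, 9 of the 10 genes had a WT peak and all 10 a DKO peak, against 67.1% and 70.4% of all protein-coding genes. The median gene among the 10 had 3 WT and 4 DKO peaks within 50 kb, and the median over all genes was 1 and 2. These counts were not adjusted for gene length, which ran from 2902 bp for *Nkx2-5* to 163652 bp for *Mef2c*.

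Among 39 other cardiac regulators listed for context, such as the Tbx, Foxc and Zfpm families, 31 genes had a WT peak within 5 kb and 31 a DKO peak. In 26 of the 39 both lists had a peak, in 5 only the WT list, in 5 only the DKO list, and *Irx2*, *Gata5* and *Mef2b* had none in either. The core regulators and this wider list thus both exceeded the genome-wide shares, by counts that carry no test.

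**Figure D1:**
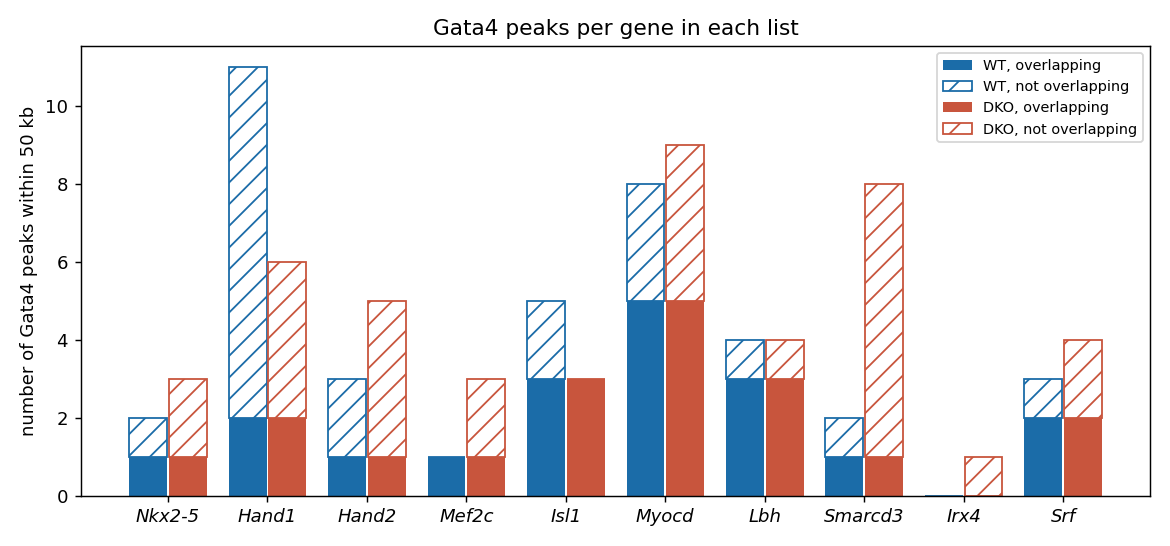
Number of Gata4 peaks within 50 kb of each gene (vertical axis) in the WT list (blue) and the DKO list (red), split into peaks that overlap a peak of the other list (filled) and peaks that do not (hatched). *Hand1* holds 11 WT and 6 DKO peaks, *Smarcd3* 2 and 8, and *Irx4* 0 and 1.

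The balance between the lists differed from gene to gene. *Hand1* (11 WT and 6 DKO peaks) and *Isl1* (5 and 3) had more peaks in the WT list. The other list was ahead at 7 genes, *Smarcd3* (2 WT and 8 DKO), *Hand2* (3 and 5), *Mef2c* (1 and 3), *Nkx2-5* (2 and 3), *Myocd* (8 and 9), *Srf* (3 and 4) and *Irx4* (0 and 1), and *Lbh* had 4 in each. *Hand1* had the most WT peaks of the 10 genes, and 0.719% of all genes had 11 or more WT peaks within 50 kb. For *Myocd* 2.55% of genes had at least as many WT peaks and 6.55% at least as many DKO peaks. Part of this balance came from peaks nearer to other genes. Counting only peaks whose nearest gene was the regulator, *Smarcd3* had 2 WT and 3 DKO peaks, *Nkx2-5* 2 and 2, and *Myocd* 7 and 7. *Srf* then had 3 and 2 and *Hand1* 4 and 1, while the other genes kept their counts. The DKO list was also the longer one, with 22733 peaks against 20410.

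Most of these peaks lay outside the regulators. In the WT list 10 peaks lay inside the regulator, 20 upstream and 9 downstream, and in the DKO list 11 lay inside, 16 upstream and 19 downstream. The regulator was the nearest protein-coding gene for 31 WT and 31 DKO peaks. The 8 other WT peaks lay nearer to *Gm11003* or *Arhgap44*, and none of them was within 1 kb of a start site. Of the 15 other DKO peaks, 11 lay within 1 kb of a start site, so these DKO peaks lay at the start sites of neighbours.

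**Figure D2:**
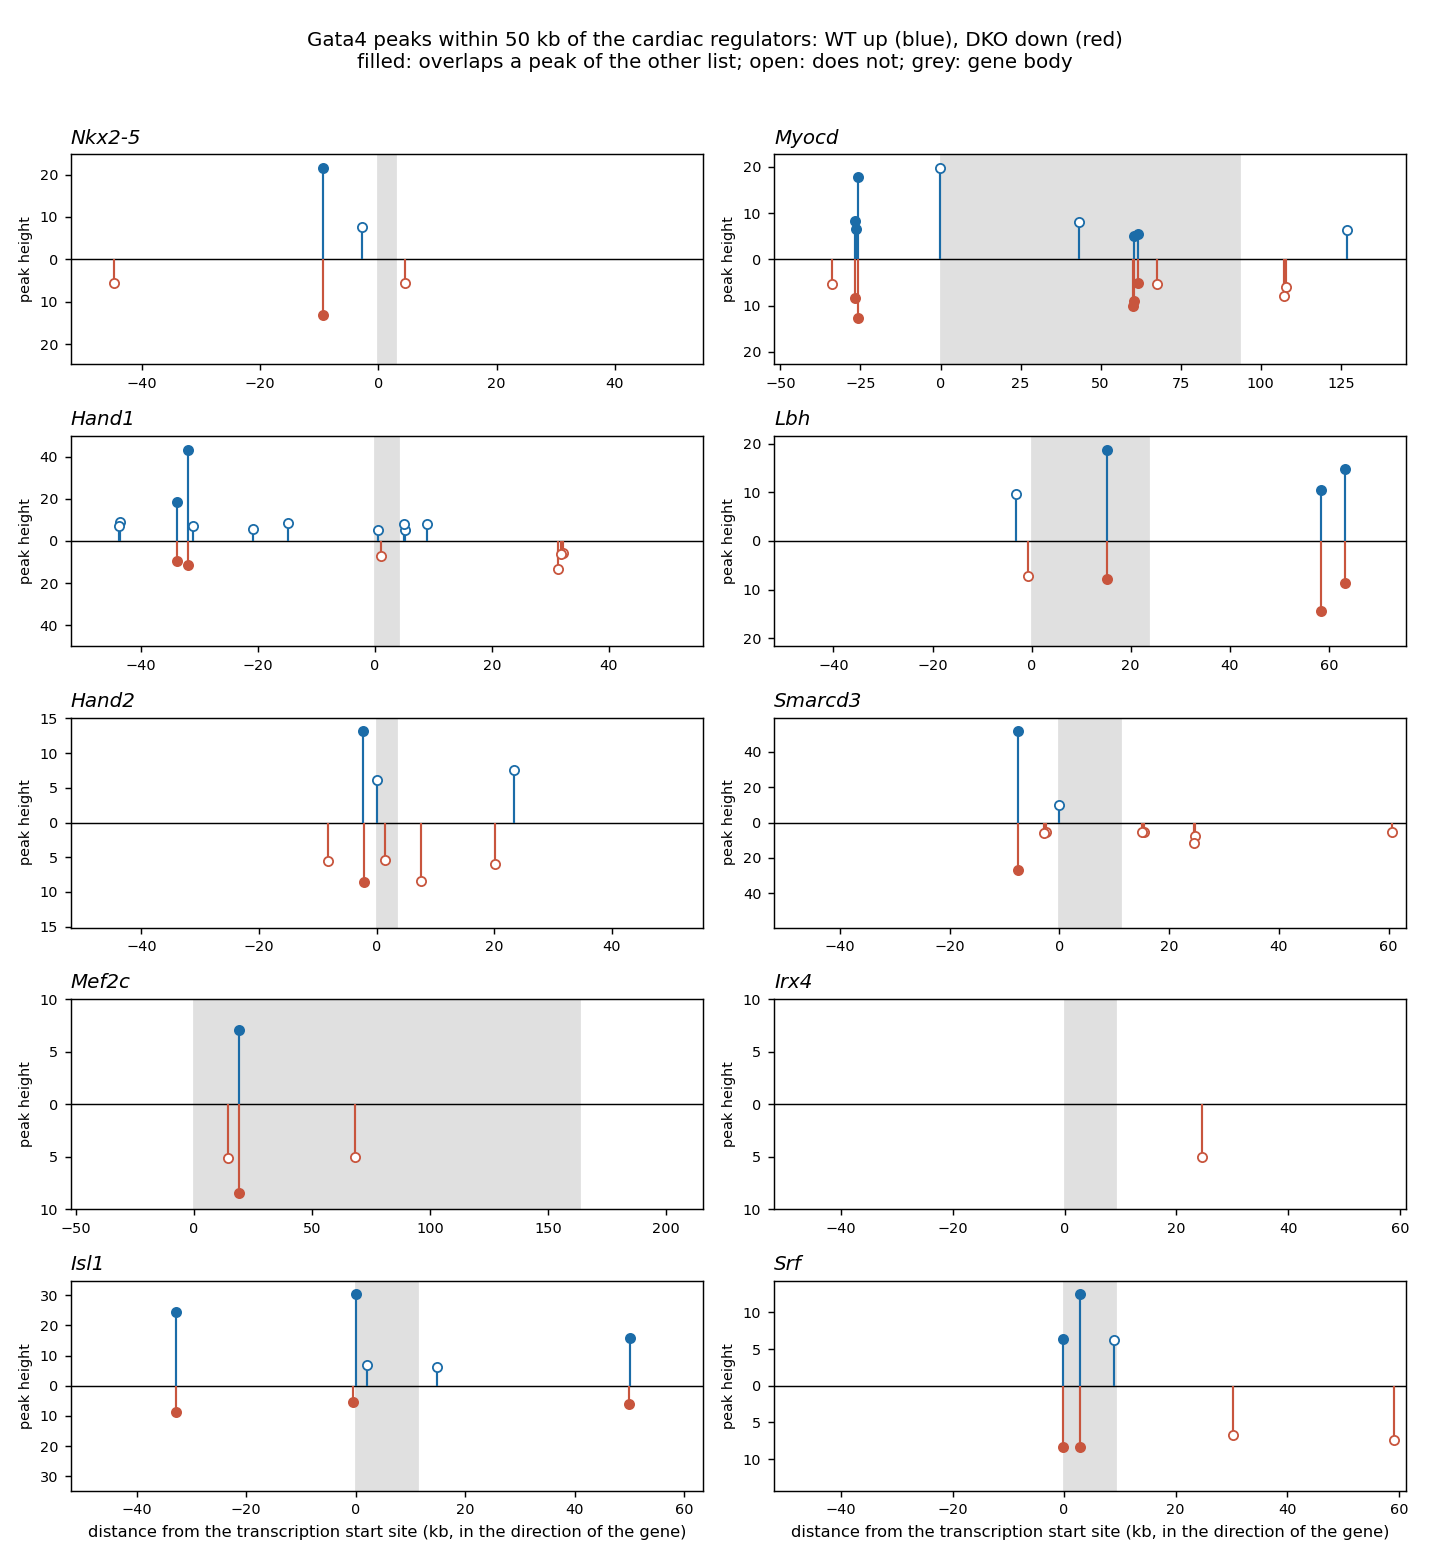
Gata4 peaks around each regulator, plotted by distance from the transcription start site in kb in the direction of the gene (horizontal axis) and by peak height (vertical axis, authors' units), with WT peaks drawn upward in blue and DKO peaks downward in red. Filled points overlap a peak of the other list, open points do not, and grey marks the gene body. At 9 of the 10 genes at least 1 filled pair is present, and *Irx4* shows a single open DKO peak.

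*Nkx2-5*, the homeodomain factor that marks cardiac progenitors, lies on the minus strand at chr17:26975609-26978510. Its tallest Gata4 site lay upstream, where the WT peak at 26987908 was 9398 bp from the start site with a height of 21.5 over an ES background of 5.63 (rank 5462). That background was higher than under 97.9% of WT peaks. The DKO peak at 26987832 lay 76 bp away with a height of 13.2 over a background of 2.05 (rank 2230). Both windows held 2 Gata matches, with 28 CpGs in the WT and 32 in the DKO window, which makes this the most CpG-rich of the shared distal sites shown above. The WT list thus had the taller peak here and the DKO list the better rank and the higher enrichment, 6.45-fold against 3.83-fold.

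Closer to *Nkx2-5* the lists diverged. A WT peak 2759 bp upstream, at 26981269, had a height of 7.59 over 1.38 (rank 5715), 3 Gata matches and 26 CpGs, and the nearest DKO peak lay 6563 bp away. A DKO peak 1544 bp past the gene end, at 26974065, had a height of 5.67 over 1.05 (rank 11317), 1 Gata match and 14 CpGs. The remaining DKO peak, 44703 bp upstream, held no Gata match, had a height of 5.66 and was nearest to *Kifc5b*.

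*Isl1*, the LIM-homeodomain factor of second heart field progenitors, lies on the minus strand at chr13:117088478-117099896 and was the only regulator at which every DKO peak overlapped a WT peak. At all 3 of its shared sites the DKO peak was the lower one. Upstream, the WT peak at 117132669 (32773 bp from the start) had a height of 24.5 over 1.32 and ranked 162 in its list, and the DKO peak 2 bp away had a height of 8.79 over 0.999 (rank 2241). This window had no CpG at all, 2 Gata matches and 3 matches to TNAAGTG, the motif of Nkx2-5. Downstream, at 117049916, the WT peak had a height of 15.9 over 1.48 (rank 730) with 3 Gata matches and 10 CpGs, and the DKO peak 26 bp away had a height of 6.19 over 0.832.

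The lowest DKO to WT height ratio near the 10 genes was at the *Isl1* start. The WT peak at 117099916, 20 bp upstream of it, had a height of 30.3 over 4.63 (rank 1360), the tallest of the gene, with 2 Gata matches and 51 CpGs. The DKO peak at 117100307 lay 391 bp farther upstream with a height of 5.38 over 1.63 (rank 13695), no Gata match and 45 CpGs. Its height was 0.178 of the WT height (0.0236% of all overlapping pairs had a lower ratio), but with their positions this far apart the windows overlap only in part. Besides these, 2 WT peaks had no DKO counterpart. In intron 2 a peak at 117097778 showed a height of 7.02 over 0.640 (rank 7062) with 4 Gata matches and 4 CpGs, and the peak 3350 bp past the gene end, at 117085128, had a height of 6.19 over 0.375 (rank 9890), 1 Gata match and 6 CpGs.

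*Irx4*, the ventricular homeodomain factor, lies on the plus strand at chr13:73397945-73407068 and had the sparsest neighbourhood. No WT peak lay within 50 kb. The single DKO peak, at 73422610 and 15542 bp past the gene end, had a height of 5.06 over 0.835 (rank 17142), just above the listing limit, with 1 Gata match and 5 CpGs. *Irx4* had the most CpGs at its start site of the 10 genes, 54 in a window of the same length, against a median of 23 over all genes.

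*Hand1*, a basic helix-loop-helix factor of the left ventricle and extraembryonic tissues, lies on the minus strand at chr11:57642207-57646320. Its tallest WT peak, at 57678311 and 31991 bp upstream, had a height of 43.2 over an ES background of 1.10. The enrichment was 39.2-fold and the rank 9 of the 20410 WT peaks. Of the 2 Gata matches shown above 1 was centred 2.5 bp from the peak position, and the window held 8 CpGs. The DKO peak 24 bp away had a height of 11.6 over 1.70 (rank 2419) with the same 2 matches and 8 CpGs, and 1.08% of all overlapping pairs had a ratio below the 0.268 of this pair.

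The second shared *Hand1* site, 33874 bp upstream, showed the same order, with heights of 18.5 over 1.83 in the WT list and 9.64 over 0.944 in the DKO list, and 2 Gata matches in each window. For both sites the nearest protein-coding gene was *Gm11003*, so their link to *Hand1* is one of distance only. Of the 9 WT peaks without a DKO counterpart, heights ran from 5.11 to 9.11. Those within 5 kb of the gene were at 57637363 (height 8.01 over 1.86, rank 13719, 2 Gata matches, 7 CpGs), at 57641177 (5.11 over 0.597, rank 16653, no match, 34 CpGs), at 57641416 (7.86 over 2.18, rank 17963, no match, 42 CpGs) and at 57645842 (5.42 over 1.78, rank 14327, no match, 8 CpGs). The first 3 lay past the gene end and the last inside the annotated gene, 478 bp from the start.

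Within *Hand1* itself the DKO list had 1 peak, at 57645247 in coding exon 1, with a height of 6.92 over 1.53 (rank 5392), no Gata match and 28 CpGs. It lay 595 bp from the WT peak inside the gene, too far to overlap. The tallest DKO peak within 50 kb, at 57615037 with a height of 13.1 over 4.33 (rank 15590), had no Gata match and 53 CpGs. It lay 102 bp from *Sap30l*, and 2 lower DKO peaks were within 1 kb of the same gene, so these 3 DKO peaks sat at the start of a neighbour.

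*Hand2*, the partner of Hand1 that is prominent in the right ventricle, lies on the plus strand at chr8:59799780-59803314. Its shared site lay 2309 bp upstream in WT, at 59797471, with a height of 13.2 over 0.997 (rank 1306), 2 Gata matches and 3 CpGs. The DKO peak at 59797554 had a height of 8.50 over 1.68 (rank 7809), also with 2 matches, and 4 CpGs. The WT list additionally had a peak in the 5′ UTR of exon 1, at 59799890, with a height of 6.11 over 1.97 (rank 20176), no Gata match and 34 CpGs, and a peak 23287 bp from the start with a height of 7.51 and 2 Gata matches.

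The DKO list had 4 more peaks around *Hand2*, which lay at other positions than the WT peaks. In coding exon 1 a DKO peak at 59801146 had a height of 5.40 over 1.72 (rank 22402), no match and 39 CpGs, and the one 4063 bp past the gene end, at 59807377, had a height of 8.44 over 1.58 (rank 2575), 1 match and 31 CpGs. The other pair, 8225 bp upstream and 20076 bp downstream of the start, had heights of 5.51 and 5.98, no Gata match, and 24 and 30 CpGs. All 4 of these windows thus had at least 24 CpGs, where the shared *Hand2* site had 3 or 4.

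*Mef2c*, a MADS-box factor of cardiac and skeletal muscle, lies on the plus strand at chr13:83643033-83806684 and had only intronic peaks. Intron 2 held the single WT peak, at 83662368, with a height of 7.09 over 1.06 (rank 6890). The DKO peak 2 bp away was the taller one, with a height of 8.45 over 0.450 (rank 2570), and both windows held the 1 Gata match shown above and 9 CpGs. The 2 other DKO peaks were close to the listing limit. They were at 83657454 in intron 1 (height 5.10 over 1.03, rank 16706, no Gata match, 20 CpGs) and at 83711379 in intron 2 (height 5.00 over 1.28, rank 17938, 1 match, 8 CpGs).

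*Srf*, the serum response factor, lies on the minus strand at chr17:46683788-46693111 and had a shared peak in intron 2 and another at its promoter. In intron 2 the WT peak at 46690315 had a height of 12.5 over 2.30 (rank 5470) and the DKO peak at 46690292 a height of 8.35 over 1.56 (rank 2688). Each window held 1 Gata match and 1 CArG box, with 20 CpGs in the WT and 21 in the DKO window. CArG boxes were rare among the peaks as a whole, in 2.55% of WT and 2.00% of DKO windows.

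At the *Srf* promoter the order was turned. The WT peak at 46693353, 242 bp upstream, had a height of 6.34 over 1.81 (rank 9269) and the DKO peak at 46693286, 175 bp upstream, a height of 8.30 over 1.63 (rank 2740). Neither window held a Gata match, and both held 2 CArG boxes, with 27 CpGs in the WT and 31 in the DKO window. No other window near the 10 genes held this motif, so the 2 WT and 2 DKO windows with a CArG box were all at *Srf*. The 200 bases before the start are printed from the plus strand of mm9, with both CArG boxes in capitals, because they lie in the windows of both peaks and hold neither AGATAA nor TGATAA. The stretch includes the DKO position but not the WT position.
Srf, upstream of the start (chr17:46693112-46693311): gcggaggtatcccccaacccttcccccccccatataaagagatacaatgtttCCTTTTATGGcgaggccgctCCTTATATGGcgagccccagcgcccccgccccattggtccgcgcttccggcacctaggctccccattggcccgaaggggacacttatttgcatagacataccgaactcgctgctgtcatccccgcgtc

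A WT peak in the 3′ UTR of exon 7 of *Srf*, at 46684129, had a height of 6.30 over 1.78 (rank 9405), no Gata match and 11 CpGs, and no DKO peak overlapped it. The 2 further DKO peaks lay downstream, with heights of 6.79 (nearest gene *Cul9*) and 7.40 (nearest gene *BC048355*), and held no Gata match. The second of these was 49890 bp from *Srf* and so just within the distance used, and another DKO peak with a height of 7.64 was left out at 50061 bp. At *Smarcd3* the farthest DKO peak, with a height of 5.29, was also near the limit at 49468 bp.

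*Myocd*, which encodes the Srf coactivator myocardin, lies on the minus strand at chr11:64990063-65083491 and had the most shared sites of the 10 genes. The tallest DKO peak of the gene was at 65109389, 25898 bp upstream, with a height of 12.7 over 0.909 (rank 628), and the WT peak 18 bp away had a height of 17.9 over 2.17 (rank 1777). Both held 2 Gata matches, 9 CpGs and 4 copies of CAGNTG, an E-box form bound by basic helix-loop-helix factors. Farther upstream, 26574 bp from the start in the WT list, a second shared site had nearly the same height in both lists, 8.34 over 1.40 in WT and 8.37 over 0.686 in DKO, with 3 Gata matches in each window. Another WT peak of this cluster, 26408 bp upstream with a height of 6.52, overlapped the same DKO peak. The DKO list alone had a peak 33902 bp upstream with a height of 5.33 and 3 Gata matches, and the peaks past the gene end, 2 DKO and 1 WT, were nearest to *Arhgap44*.

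The tallest WT peak of *Myocd* had no counterpart. It lay at the promoter, at 65083529 and 38 bp upstream of the start, with a height of 19.7 over 3.87 (rank 3557), 31 CpGs and no Gata match, and the nearest DKO peak was 25860 bp away. The *Isl1* and *Myocd* starts were the places near these genes where a WT promoter peak among the tallest of its gene stood beside a low DKO peak or none. Lower WT peaks without an overlapping DKO peak lay within 1 kb of the starts of *Smarcd3*, described below, *Hand2* (110 bp) and *Hand1* (478 bp).

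Intron 5 of *Myocd* held low peaks in both lists. The WT peaks at 65021770 (height 5.58 over 1.19, rank 13182) and 65023116 (5.08 over 1.12, rank 16888) had 1 and 2 Gata matches and 6 CpGs each. The DKO peaks that overlapped them were at 65021702 (5.19 over 0.900, rank 15571, 1 match, 6 CpGs), at 65023050 (8.96 over 2.15, rank 11519, 1 match, 7 CpGs) and at 65023232 (10.1 over 1.88, rank 5194, 2 matches, 8 CpGs). With the pair at 65023116 and 65023050 the DKO height was 1.76 times the WT height, the highest ratio among the 18 pairs of mutually nearest peaks near these genes. In intron 2 a WT peak at 65040353 (8.16 over 0.877, rank 4672, 1 match, 12 CpGs) and in intron 6 a DKO peak at 65016001 (5.32 over 0.471, rank 14283, 1 match, 5 CpGs) had no counterpart.

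*Smarcd3*, which encodes a BAF subunit expressed in cardiac and somitic mesoderm, lies on the minus strand at chr5:24096636-24107830 and had the tallest peak near any of the 10 genes in both lists. The WT peak at 24115328, 7498 bp upstream, had a height of 51.7, but the ES background under it was 15.0, higher than under 99.95% of WT peaks, so its enrichment was 3.43-fold and its rank 2436. The DKO peak 24 bp away had a height of 27.0 over a background of 2.54, an enrichment of 10.6-fold and a rank of 237. Each window held 5 Gata matches, the most of any peak near these genes, with 5 CpGs in the WT and 4 in the DKO window. The order of the lists at this site thus turned with the measure, since the WT height and the DKO enrichment were the larger ones.

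All other *Smarcd3* peaks were found in a single list. The WT list had a promoter peak 161 bp upstream of the start, at 24107991, with a height of 9.97 over 3.25 (rank 18256), 1 Gata match and 51 CpGs. The DKO list had peaks at 24110326 (height 5.07 over 1.43, rank 17021, 19 CpGs) and 24110554 (6.0 over 1.68, rank 20466, 48 CpGs), both upstream, and at 24092500 (5.14 over 1.34, rank 16196, 35 CpGs) and 24092700 (5.11 over 1.35, rank 16589, 35 CpGs), both nearest to *Chpf2*. None of these 4 held a Gata match. The remaining 3 DKO peaks were at *Abcf2* and *Asb10*, with heights from 5.29 to 11.4.

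*Lbh*, the limb-bud and heart cofactor, lies on the plus strand at chr17:73267645-73291282. In intron 2 the WT peak at 73282948 had a height of 18.8 over 2.34 (rank 1739) and the DKO peak 3 bp away a height of 7.73 over 0.264 (rank 3571). Both windows held 2 CpGs and 1 Gata match, which lay 6.5 bp from the WT and 3.5 bp from the DKO position. The pair 63270 bp from the start had heights of 14.8 over 4.49 in WT and 8.59 over 1.21 in DKO, with 2 matches and 4 CpGs in each.

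The tallest DKO peak of *Lbh*, at 73326123 and 58478 bp from the start, showed the reverse order. Its height was 14.4 over 0.363 (rank 406), and the WT peak 8 bp away had a height of 10.5 over 1.77 (rank 2383), with 2 Gata matches and 8 CpGs in each window. Its central 161 bases, with a Gata match in capitals, are printed from the plus strand of mm9 because it is the tall site at which the DKO peak exceeded the WT peak.
Lbh, downstream (chr17:73326043-73326203): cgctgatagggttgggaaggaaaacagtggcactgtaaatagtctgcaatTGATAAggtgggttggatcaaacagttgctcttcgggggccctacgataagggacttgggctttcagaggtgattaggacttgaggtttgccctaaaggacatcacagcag

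Upstream of *Lbh* the lists had 1 unshared peak each, 2421 bp apart. The WT peak at 73264436, 3209 bp upstream, had a height of 9.72 over 1.38 (rank 2955), 1 Gata match and 10 CpGs, and the DKO peak at 73266857, 788 bp upstream, had a height of 7.23 over 1.23 (rank 4591), no match and 17 CpGs.

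Across the 10 genes, the share of peaks found in both lists was close to that of all peaks, but it differed with the distance to a start site. A DKO peak overlapped 19 of the 39 WT peaks, or 48.7% (95% Wilson interval 33.9% to 63.8%), against 45.6% of all WT peaks. In the other direction 19 of the 46 DKO peaks were shared, or 41.3% (28.3% to 55.7%), against 45.1% of all DKO peaks. Both intervals, like those below, cover counting error within a library only, and peaks near the same gene are not independent. Among peaks over 1 kb from any start site, 17 of 32 overlapped in each list, against 36.1% of all such WT and 44.3% of all such DKO peaks. Within 1 kb of a start site the order was the other way, with 2 of 7 WT peaks overlapping, against 74.0% of all such peaks, and 2 of 14 DKO peaks, or 14.3% (4.01% to 39.9%), against 46.0%. However, 11 of these 14 DKO peaks lay nearer to another gene, and none of the 11 was shared. The 2 shared ones lay at the *Isl1* and *Srf* starts, so the low DKO share mostly describes start sites of neighbours.

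The Gata motif was found in a larger share of shared than of unshared peaks near these genes. It was present in 28 of 39 WT windows, 71.8% (56.2% to 83.5%), against 61.9% of all WT windows, and in 25 of 46 DKO windows, 54.3% (40.2% to 67.8%), against 38.1% of all DKO windows. Among peaks over 1 kb from any start site it was held by 26 of 32 WT windows, against 75.5% of all such WT windows. In the DKO list 23 of 32 such windows held it, against 57.9%. Among overlapping peaks 18 of 19 WT and 17 of 19 DKO windows held it, where 52.8% and 47.5% of all overlapping peaks did. Of all overlapping peaks, however, 40.5% (WT) and 46.2% (DKO) lay within 1 kb of a start site. Over all peaks that near a start site, 21.2% of WT and 14.1% of DKO windows held the motif. The part of start-site position in this difference was not tested. Among peaks without a counterpart 10 of 20 WT and 8 of 27 DKO windows held the motif, where 69.5% and 30.3% of all such peaks did. Counting only the 100 bp on either side of the position, the motif was held by 17 of 19 overlapping and 3 of 27 other DKO windows, where 38.9% and 20.7% of all such windows held it. In the WT list the counts were 16 of 19 and 9 of 20, where 44.4% and 59.5% of all such windows held it. The matches lay near the peak positions, with a median distance of 28.5 bp in the 28 WT windows and 36.5 bp in the 25 DKO windows that held one.

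The 3 shared windows without a Gata match were the *Srf* promoter in both lists and the DKO window upstream of the *Isl1* start. All 3 lay within 1 kb of a start site.

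Other cardiac motifs were present at about the shares of all peaks. TNAAGTG (Nkx2-5) was found in 10 WT and 9 DKO windows, 25.6% and 19.6%, against 23.4% and 18.1% of all windows. AGGTGT (T-box factors) was found in 28.2% of the WT and 28.3% of the DKO windows, against 26.3% and 21.3%. CAGNTG (basic helix-loop-helix factors) was found in 64.1% and 58.7%, against 72.5% and 68.4%. A Mef2 site was found in 1 window of each list, the shared site 58478 bp from the *Lbh* start. All motifs were searched on both strands, and a match describes the letters in a window and not a bound site.

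**Figure D3:**
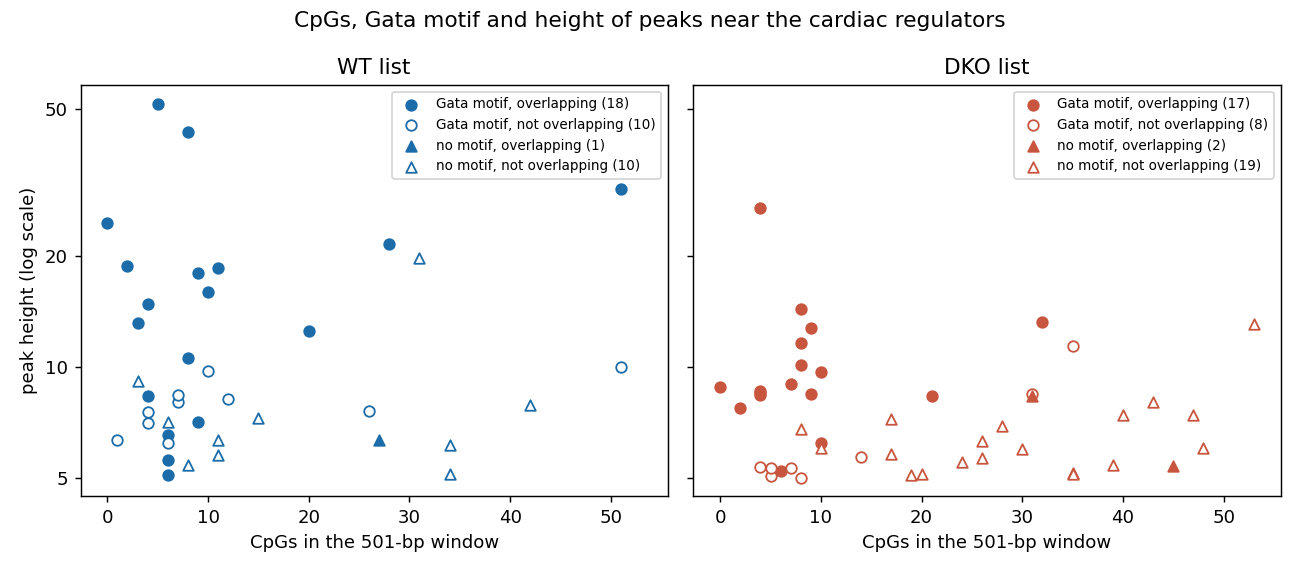
Height of each peak near the regulators (vertical axis, log scale, authors' units) against the number of CpGs in its window (horizontal axis), in the WT list (left) and the DKO list (right). Circles hold AGATAA or TGATAA and triangles do not, and filled symbols overlap a peak of the other list. In the DKO list 15 of the 19 filled symbols have at most 10 CpGs, and 16 of the 27 open ones have at least 20.

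Shared peaks near the regulators were poorer in CpGs than unshared ones, most clearly in the DKO list. The median window held 8 CpGs in the WT list (8 over all WT peaks) and 15.5 in the DKO list (21 over all DKO peaks). Among peaks whose nearest gene was the regulator the median was 9 in either list. CpG-rich DKO windows were still found among these peaks, such as those upstream of the *Isl1* start (45 CpGs) and in coding exon 1 of *Hand2* (39). Others lay nearer to other genes, such as the 1 at *Sap30l* (53). Shared peaks near the regulators had a median of 8 CpGs in either list, where all shared peaks had 13 in the WT and 20 in the DKO list. Unshared peaks had a median of 10.5 in the WT list, against 6 over all unshared WT peaks, and 26 in the DKO list, against 21 over all unshared DKO peaks. Of the 27 unshared DKO peaks 16 had at least 20 CpGs, or 59.3% (40.7% to 75.5%), against 51.8% of all unshared DKO peaks, and 2 of these 16 held a Gata match, against 11.3%. Both shares were near those of the list. Of the 19 shared DKO peaks 4 had at least 20 CpGs, or 21.1% (8.51% to 43.3%), against 50.3% of all shared DKO peaks. In the WT list 6 of 20 unshared and 4 of 19 shared peaks had at least 20 CpGs, against 12.4% and 44.3%.

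Nearness to a start site moved with these counts. Within 1 kb of any start site lay 12 of the 27 unshared DKO peaks, close to the 44.6% of all unshared DKO peaks, and 5 of the 20 unshared WT peaks, against 11.9% of all unshared WT peaks. Only 2 of the 19 shared peaks of each list lay that near, against 40.5% of all shared WT and 46.2% of all shared DKO peaks, so it was the shared peaks near the regulators that departed most from their list. The part of start-site position in the CpG difference was not tested. The start sites of 8 of the 10 regulators had more CpGs than the median gene, with *Mef2c* (7) and *Hand1* (21) below it.

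**Figure D4:**
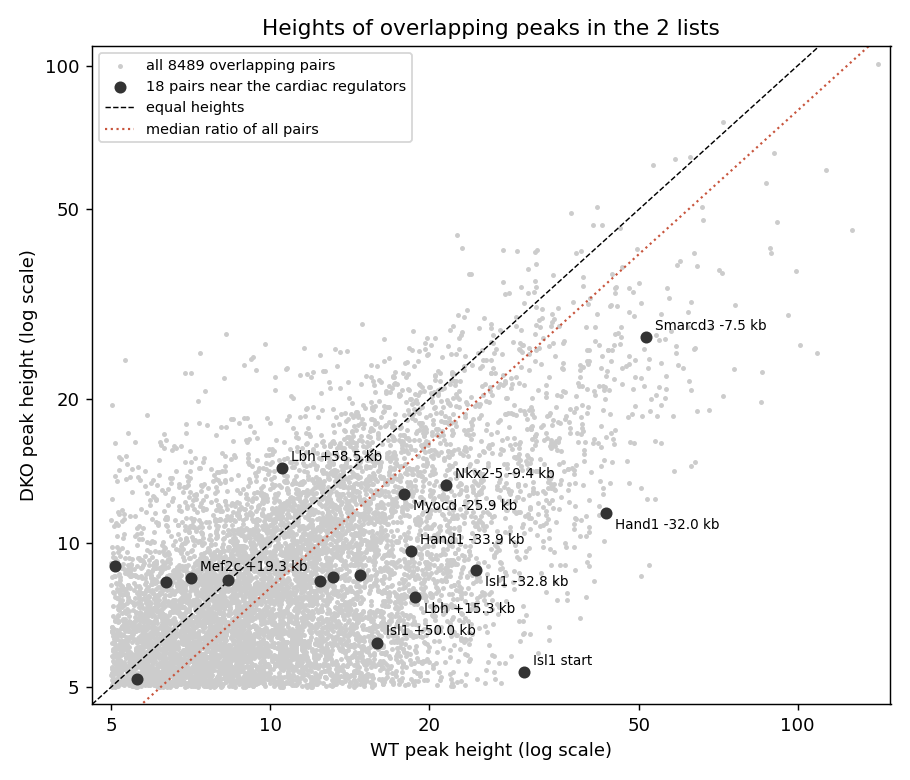
Heights of overlapping peaks in the WT list (horizontal axis) and the DKO list (vertical axis), both on log scales in the authors' units, for all 8489 pairs (grey) and the 18 pairs near the regulators (black, the taller pairs and *Mef2c* labelled by distance from the start site). The dashed line marks equal heights and the dotted line the median DKO to WT ratio of all pairs, 0.806. Of the 18 pairs, 12 lie below the dotted line and 5 above the dashed line.

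Shared peaks were taller than unshared ones near these genes, with median heights of 14.8 and 7.37 in the WT list and 8.59 and 5.79 in the DKO list, and the same order held over all peaks, with 10.1 and 6.69 (WT) and 7.82 and 6.40 (DKO). The 19 overlapping peaks of each list formed 18 pairs in which each peak was the other's nearest, and in 17 of them the positions lay within 100 bp. The median DKO to WT height ratio was 0.630 (quartiles 0.439 and 0.985), against 0.806 over all 8489 pairs of the lists. The interval of this median, 0.411 to 1.004, includes 0.806. It takes the 18 pairs as independent, though several lie near the same gene, and holds no spread between libraries. Whether the ratio near the regulators differs from that of all pairs was therefore not tested. The DKO peak was the taller in 5 of the 18 pairs, 27.8%, against 28.1% of all pairs. These 5 were *Lbh* downstream, *Mef2c* intron 2, the *Srf* promoter, *Myocd* intron 5 and the *Myocd* site with nearly equal heights.

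The pairs with the lowest ratios belonged to *Isl1* (0.178, 0.358 and 0.388), *Hand1* (0.268) and *Lbh* intron 2 (0.411). In 16 of the 18 pairs both windows held the same number of Gata matches. This follows largely from position, since in 17 pairs the positions lay within 100 bp and the windows shared most of their bases. Whether the ratio goes with the number of matches was not tested. The ES background also differed between the genotypes. It was lower in the DKO than in the WT list in 15 of the 18 pairs, against 75.7% of all pairs, with *Hand1* at 31991 bp, *Hand2* and 1 *Myocd* intron 5 pair as the exceptions. Several DKO peaks with lower heights than their WT partners had a better rank in their own list, among them those of *Smarcd3*, *Nkx2-5* and *Myocd* upstream.

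By rank, 8 of the 39 WT peaks and 6 of the 46 DKO peaks were in the top 10% of their list. All 14 were shared peaks, and among all peaks of the top 10% the shares were 74.0% (WT) and 77.5% (DKO). In the WT list they included the upstream sites of *Hand1* (rank 9), *Isl1* (162) and *Hand2* (1306), and in the DKO list those of *Smarcd3* (237), *Lbh* downstream (406) and *Myocd* upstream (628).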

How the data were processed

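Gata4 ChIP-seq was analysed from the peak lists of WT and DKO Flk1(+) cells with Dex, each called over the ES library of its genotype without Dex, with 1 library per condition. Per the submitters' processing notes CASAVA 1.8.1 and cutadapt were used and reads were placed on mm9. Peaks were called by the authors in DNAnexus (kernel density bandwidth 30, candidate threshold 5.0, enrichment 3.0, ratio of confident to repetitive mapping 3.0). How reads were aligned, whether duplicates were removed and whether profiles were scaled for depth are not given in the sources used here. The deposited signal values are peak heights in the Flk1(+) and ES profiles, the deposited fold enrichment is their ratio, with a background below 1 taken as 1, and the deposited −log10 q-value orders the peaks and gives the score used here as rank. The enrichment was recomputed from the heights and equalled the deposited ratio. As the columns name no library, the lists were matched to the genotypes through the peak numbers in the study's methods.

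All 501-base windows in the lists equalled mm9 around the position. Genes were taken from GENCODE vM1 on mm9 (protein-coding, longest entry per symbol), and exons from 1 transcript per gene. Peaks within 50 kb of a regulator were kept, and those within 5 kb included all that the lists pair with it. Shares carry 95% Wilson intervals. The regulators, the 39 further genes and the motifs were chosen with earlier results of these data known. The tallest peak of each list and all peaks within 5 kb are given by position, and neighbours of other peaks were named after their values were seen. The CpG limits of 10 and 20 were also chosen after seeing the data. No test was run, since no condition had a replicate. The steps were tested on simulated data. Alternatives were other distances, the nearest gene, the names in the lists, the 50% of each list with the best ranks, other definitions of overlap, another motif and the central 201 bp (planned as 200 bp). Matplotlib 3.10.9, pandas 2.3.3, SciPy 1.17.1, NumPy 2.4.6 and Python 3.11.15 were used. Reads and the other measurements of the study were not analysed here.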

Additional observations from a re-analysis of the deposited data

How the results depend on the processing

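Of 55 alternative values for 11 results, 47 stayed close to the value reported, within 1.5 times for counts or within the 95% interval for shares and medians, and 8 moved. The number of peaks followed the distance, with 25 WT and 30 DKO peaks at 20 kb and 67 and 72 at 100 kb, against 39 and 46 at 50 kb. Among the 50% of each list with the best ranks the regulators kept 25 DKO peaks. Of these, 68% held the Gata motif, against 54.3% of all 46. A WT peak that was also in the best-ranked 50% overlapped 56% of the 25, where 41.3% of all 46 overlapped any WT peak. Counting WT peaks of any rank, 16 of the 25 overlapped one. Over the whole DKO list 6313 of the 11366 best-ranked peaks overlapped a WT peak of any rank. The motif share was not set against that of all best-ranked peaks. A looser motif that also takes AGATAG and TGATAG was found in 84.6% of WT windows, against 71.8%, and in 71.8% of all WT windows, against 61.9%. The median CpG count of DKO peaks, 15.5 against 8 in the WT list, stayed within the interval of its median (8 to 26). It was 9 where the regulator was the nearest gene, the same as the 9 of WT peaks there. Among the best ranks it was 10, against 8 in WT. At 20 kb it was 20.5 against 10 in WT, and at 100 kb 18 against 10. The size of the difference between the lists thus depended on the alternative. Shares under other definitions of overlap and the median height ratio (0.630 to 0.690) stayed within their intervals. No paired analysis was possible because each condition had 1 library. Without replicates, and with the scaling of the profiles for depth unknown here, heights can be ordered within a list but a difference between lists has no error. A peak missing from a list had no value there, so its signal could not be set against the other list.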
